A study of Mus musculus with 3 samples.

Results

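Interferon-stimulated genes, the antiviral and antimicrobial genes that interferons switch on, were described together with the transcription factors that control them. The set of 42 genes was chosen by symbol as targets of type I and type II interferon with their IRF and STAT regulators, and all 42 were found among the 24091 genes of each table. The 3 libraries form 1 group of lymphatic endothelial cells from the large intestine of C57BL/6 mice, sorted on CD31, podoplanin and LYVE1, and are called replicates 1, 2 and 3. The labels name no treatment, age or sex, do not explain the word Water in the names of the deposited tables, and leave unsaid whether separate mice gave them, so the SDs may hold technical spread alone. Every level is in TPM, a transcript abundance scaled by transcript length and library total, given as mean ± SD over 3 libraries unless values of replicates 1, 2 and 3 are listed. With 1 group there was no contrast between conditions, and no test was made.

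Interferons of type I and type III are released after cells sense foreign nucleic acid, and interferon-gamma comes from T and NK cells. Receptor binding activates JAK kinases, which phosphorylate STAT proteins. STAT2 and IRF9 belong to the complex that binds the interferon-stimulated response element (ISRE), and the gamma-activated site (GAS) is the element known from the response to interferon-gamma. The products act against viruses and against microbes inside vacuoles, and many are present at a tonic level without infection. In the gut they are known in epithelium, leukocytes and endothelium alike.

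Start-site sequences are shown first, because the ISRE is what the set's targets are known to share and the choice of members did not use it. RefSeq's table of promoters (GRCm38.p6, equivalent to mm10; 250 bases before to 50 after each start) held 32 of the 42 members. It does not hold Zbp1, Oas2, Mx1, Mx2, Usp18, Gbp6, Iigp1, Ifi27, Rtp4 or Parp14. The ISRE was searched on both strands as a pair of GAAA blocks with 2 free bases (NN) between them, which read as TTTC blocks on the other strand, and the GAS as TTCNNNGAA, which reads the same on both strands. ISRE letters stood in 18 of the 32 members (56.2%), against 1079 of 27025 genes in the whole table (3.99%). GAS letters stood in 11 of 32 (34.4%), against 9.55% of all genes, 6 members held both and 9 held neither. Each window below is a match before the start with 20 bases on either side, and belongs to the most abundant member of its role whose whole window lies outside the gene's span and overlaps no GENCODE exon. Irf2, Irgm1 and Gbp2 are more abundant than the member shown for their roles, but such exons overlap their windows. Ifitm2, Oas1a and Gbp3 are more abundant too, but their windows reach into the gene's span. Each window shown reads 5′ to 3′ on the gene's strand, with ISRE letters in capitals.
Bst2 (chr8:71537567-71537616, minus strand): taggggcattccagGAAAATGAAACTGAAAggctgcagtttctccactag
Isg15 (chr4:156200855-156200904, minus strand): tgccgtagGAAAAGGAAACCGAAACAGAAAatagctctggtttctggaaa
Igtp (chr11:58199502-58199551, plus strand): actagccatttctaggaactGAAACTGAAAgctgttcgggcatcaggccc
Stat2 (chr10:128270256-128270305, plus strand): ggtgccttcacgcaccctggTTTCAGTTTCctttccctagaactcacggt
Ifit1 (chr19:34640784-34640833, plus strand): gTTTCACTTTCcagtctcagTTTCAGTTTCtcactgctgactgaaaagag
Trim30a (chr7:104465200-104465249, minus strand): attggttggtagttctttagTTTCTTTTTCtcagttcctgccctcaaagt
Gbp7 (chr3:142530263-142530312, plus strand): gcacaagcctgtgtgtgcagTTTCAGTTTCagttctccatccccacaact
Oas3 (chr5:120777705-120777754, minus strand): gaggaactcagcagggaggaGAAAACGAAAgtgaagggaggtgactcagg

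In Isg15 the capitals cover 3 overlapping matches in 1 run, and in Bst2 they cover 2, beside GAS letters that overlap the first of them. Ifit1 held 2 separate matches, 104 and 85 bases before its start. Of the 16 members with an ISRE match wholly before the start, 14 had one that began within 150 bases of it. In Ifih1 and Ifitm3 the matches lay only after the start. Ifitm3, Ifitm2 and Bst2, the most abundant of the 32, all held ISRE letters, and Irf1 was the highest without them, at 97.2 TPM. Below Bst2 the letters did not order the members by level. The 18 with ISRE letters had a median of 24.0 ± 1.13 TPM and the 14 without had 37.0 ± 2.76 TPM, and Irf7, at 86.9 ± 14.2 TPM, held neither motif in its window. A match describes letters only, and its absence says nothing of the factor.

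**Figure D1:**
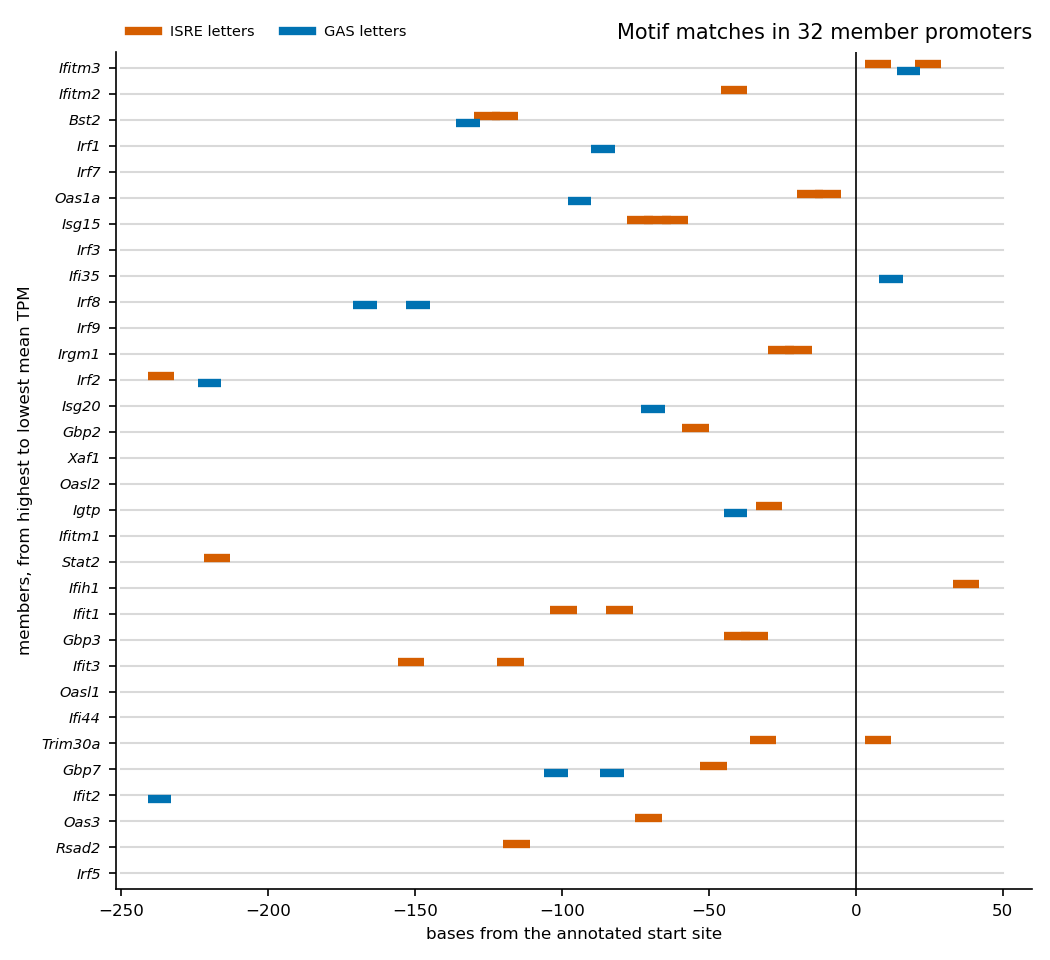
Positions of ISRE (orange) and GAS (blue) letters in the promoters of 32 members, ordered from the highest mean TPM (top) to the lowest; the x axis is bases from the annotated start site. ISRE letters stood in 18 of 32 members, most of them within 150 bases before the start. Ifitm3, Ifitm2 and Bst2, at the top, all hold them, and from Irf1 down members with and without them are mixed.

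All 42 members reached a TPM of 1 in every library, as did 53.4% of all genes. A TPM of 10 in every library was reached by 30 of the 42 (71.4% of them), against 31.7% of all genes. The median member stood at 22.4, 24.4 and 25.6 TPM in replicates 1, 2 and 3, against 2.02, 2.44 and 2.77 TPM over all 24091 genes. Against the 12862 genes that passed 1 TPM in all libraries the set stood less far out. Their median was 16.9 ± 1.76 TPM and that of the members 24.1 ± 1.66 TPM, and 24 of the 42 had means above it. The levels ran, as means, from 929.7 TPM for Ifitm3 to 2.46 TPM for Mx2. Together the members made up 0.355%, 0.330% and 0.294% of all TPM in replicates 1, 2 and 3, and 4 of them (Ifitm3, Ifitm2, Bst2 and Ifi27) carried 0.255%, 0.221% and 0.174%. In order of mean TPM, ranges over the 3 libraries overlapped between most neighbours. They were apart in 7 of 41 neighbouring pairs, among them Ifitm2 over Bst2, Bst2 over Ifi27, Ifi27 over Irf1 and Trim30a over Gbp7.

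These are levels of whole libraries. Markers of other cells were present beside those of lymphatic endothelium, and in bulk RNA fewer cells of a type and less RNA per cell cannot be told apart. The 7 lymphatic markers (Lyve1, Pdpn, Prox1, Flt4, Mmrn1, Reln and Pecam1) were all above a TPM of 1 in every library, with Prox1 lowest at 3.58 ± 1.12 TPM. They summed to 1571, 1633 and 911 TPM in replicates 1, 2 and 3, against 15459, 19264 and 20172 TPM for 10 epithelial markers. The sums were 248, 173 and 550.0 TPM for 8 macrophage markers and 182, 124 and 448 TPM for 7 fibroblast markers. Low values fell on regular steps, from which the member value resting on the fewest reads, Irf5 in replicate 2, was estimated at 107 fragments. No member is assigned to a cell type, and the part of other cells in each level was not tested.

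**Figure D2:**
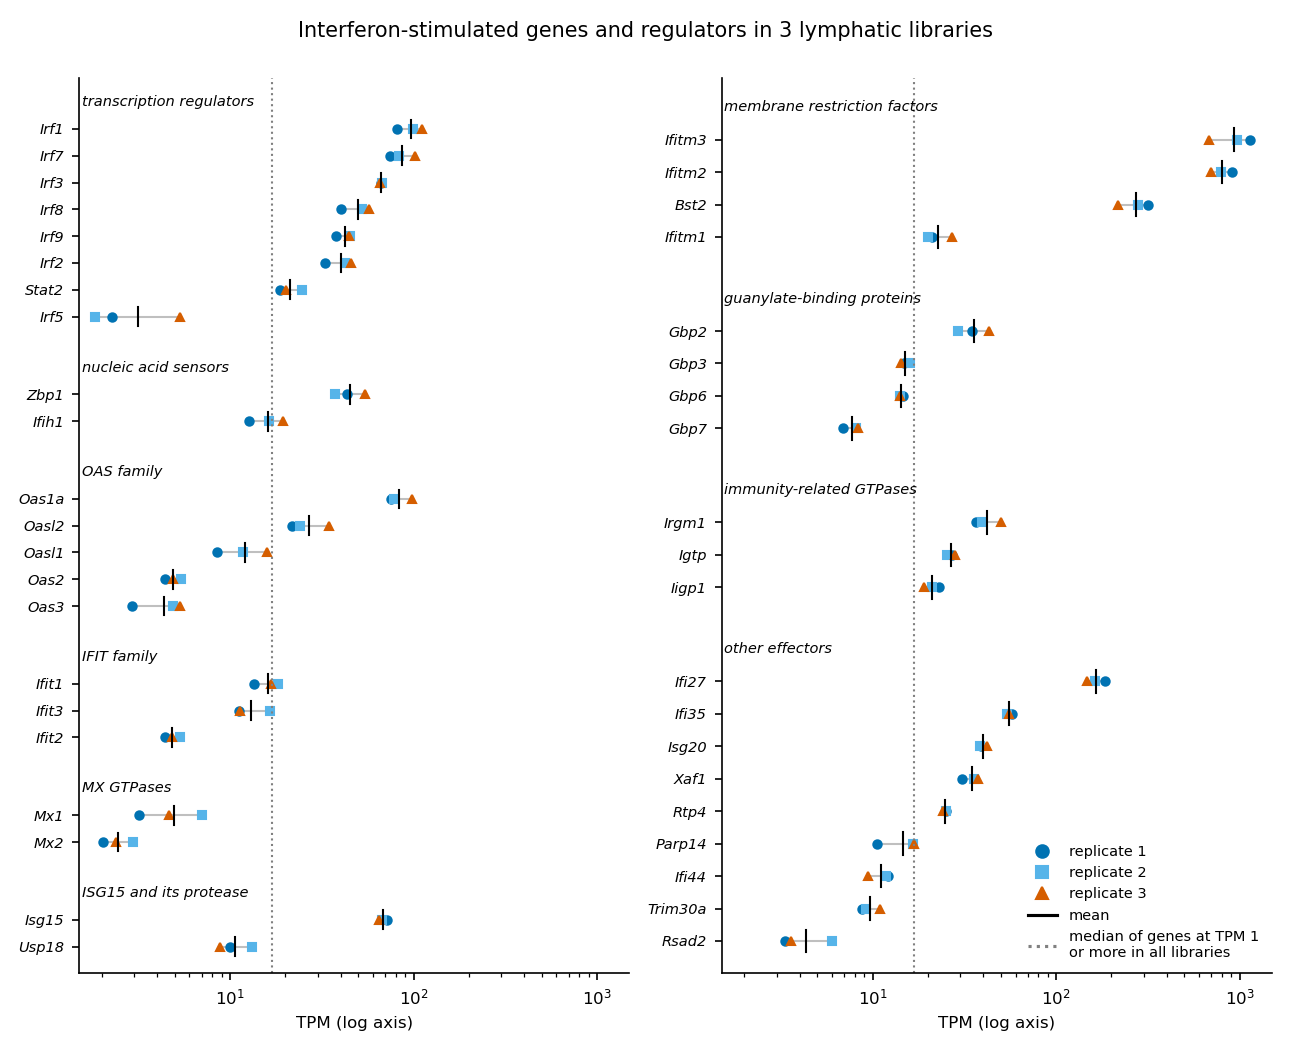
TPM (log axis) of each of the 42 members in replicates 1 (circles), 2 (squares) and 3 (triangles), grouped by role, with the mean as a black bar; the dotted line is the median of genes that passed 1 TPM in all libraries. Ifitm3, Ifitm2 and Bst2 stand highest and the OAS, IFIT and MX families span levels on both sides of the line or below it.

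Transcription regulators were among the abundant members, and 7 of 8 reached a TPM of 10 in every library. Irf1 (chromosome 11, 53770014 to 53778374), an activator that both interferon types induce, had 81.4, 99.1 and 111 TPM in replicates 1, 2 and 3. Irf7 (chromosome 7, 141263183 to 141266499), the factor that amplifies type I interferon production, had 74.7, 83.5 and 102 TPM. Both were highest in replicate 3 and lowest in replicate 1, as were many genes: of all genes of mean TPM 1 or more, 41.3% were highest in replicate 3 and 62.6% lowest in replicate 1. The ranges of Irf1 and Irf7 overlap. Irf3, which is made constitutively and is activated by phosphorylation, had the lowest relative spread of all 42 members, at 66.1, 67.2 and 65.3 TPM, a coefficient of variation (SD over mean) of 1.45%. Irf2, which competes with IRF1 for shared sites, had 32.9, 42.1 and 45.3 TPM, a range that overlaps that of Irf9. Exons of 8 members overlap those of a gene on the opposite strand, such as Phrf1 for Irf7. These members are Irf1, Irf3, Irf5, Irf7, Oasl1, Usp18, Gbp2 and Ifi35. It is not stated whether counting used strand, so reads of the pairs cannot be told apart. Exons of 7 members overlap those of a gene on the same strand, among them Irf9 with Rnf31, so the level of Irf9 is uncertain too. The others are Ifitm2, Gbp6, Gbp7, Igtp (with Irgm2), Rtp4 and Parp14, and the same limit holds for them. These lists rest on GENCODE exons, and the annotation used for counting is not known. In RefSeq the span of Ifi27l2a encloses that of Ifi27, and the span of Ifit1bl1 encloses that of Ifit1. Overlap of RefSeq exons was not examined, so members outside the lists are not shown to be free of this limit.

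Both members that encode parts of the complex that binds the ISRE were above a TPM of 10 in every library. Irf9, its DNA-binding subunit, had 37.6, 44.9 and 44.2 TPM in replicates 1, 2 and 3, and Stat2 had 18.6, 24.7 and 20.3 TPM. The lowest value of Irf9 lay above the highest of Stat2.

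Irf8 and Irf5 are best known from myeloid and B cells, and their levels differed widely. Irf8, needed for the development of conventional dendritic cells, had 40.2, 52.2 and 57.2 TPM in replicates 1, 2 and 3. Irf5, which drives inflammatory cytokine genes after Toll-like receptor signalling, had 2.26, 1.83 and 5.36 TPM. Irf5 was the member with the largest relative spread (coefficient of variation 61.1%) and was 1.07 higher (log2(TPM + 1)) in replicate 3 than the mean of replicates 1 and 2. The 8 macrophage markers, all above 1 TPM in each library, lay 2.61-fold higher in replicate 3 by their sum. The 7 B and plasma cell markers summed to 64.8, 139 and 196 TPM. Only 2 of 6 conventional dendritic cell markers held at least 1 TPM throughout, and the sum of the 6 was 4.66, 4.31 and 8.09 TPM. The part of these cells in the values of Irf5 and Irf8 was not tested.

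Sensors came next. Zbp1, a sensor of Z-form nucleic acid that can start necroptosis, had 43.5, 37.3 and 54.5 TPM in replicates 1, 2 and 3. Ifih1, which encodes MDA5, the sensor of long double-stranded RNA, had 12.6, 16.4 and 19.5 TPM. Both were highest in replicate 3, and the lowest value of Zbp1 lay above the highest of Ifih1. Of the 18 further sensing and adaptor genes examined, 15 reached a TPM of 1 in every library. They were led by the adaptor gene Myd88 (35.1 ± 4.17 TPM), the DNA sensor gene Aim2 (28.9 ± 3.003 TPM), Mavs (25.8 ± 3.38 TPM), Ikbke (24.6 ± 3.30 TPM) and Tbk1 (20.7 ± 3.96 TPM). The endosomal receptor genes Tlr7 (0.294 ± 0.329 TPM), Tlr8 (0.467 ± 0.251 TPM) and Tlr9 (0.250 ± 0.193 TPM) stayed below 1 TPM in all 3 libraries, whereas Tlr3 had 14.3 ± 1.30 TPM.

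The genes for interferons themselves were nearly all listed at 0. Of 21 interferon genes, 19 were at 0 in all 3 libraries, among them Ifnb1, Ifng, Ifnl2, Ifnl3, Ifne and all 13 numbered Ifna genes. Ifnz had 0.354, 0 and 0.172 TPM and Ifnk had 0, 0 and 0.244 TPM in replicates 1, 2 and 3. A value of 0 says only that no transcript was counted in these libraries, since TPM carries no depth. The receptors were present. All 6 receptor genes passed a TPM of 1 in every library, with Ifngr1 at 129 ± 7.90 TPM, Ifngr2 at 103 ± 15.2 TPM and Il10rb at 59.8 ± 7.83 TPM. Ifnar2 had 39.96 ± 6.22 TPM, Ifnar1 had 17.6 ± 2.83 TPM and Ifnlr1, the specific chain of the type III receptor, had 4.05 ± 0.639 TPM. Per length, Ifngr1 thus exceeded Ifnar1 by 8.43, 6.50 and 7.41-fold and Ifnlr1 by 36.5, 30.3 and 30.1-fold in replicates 1, 2 and 3. Downstream of the receptors, 8 of 9 signalling genes passed. Stat3 (40.97 ± 4.92 TPM), the kinase gene Jak1 (34.4 ± 6.60 TPM), the phosphatase gene Ptpn2 (26.4 ± 1.12 TPM), Jak2 (17.8 ± 2.89 TPM) and Tyk2 (15.95 ± 4.43 TPM) were the most abundant of these, and the feedback inhibitor gene Socs1 had 8.94 ± 3.02 TPM.

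**Figure D3:**
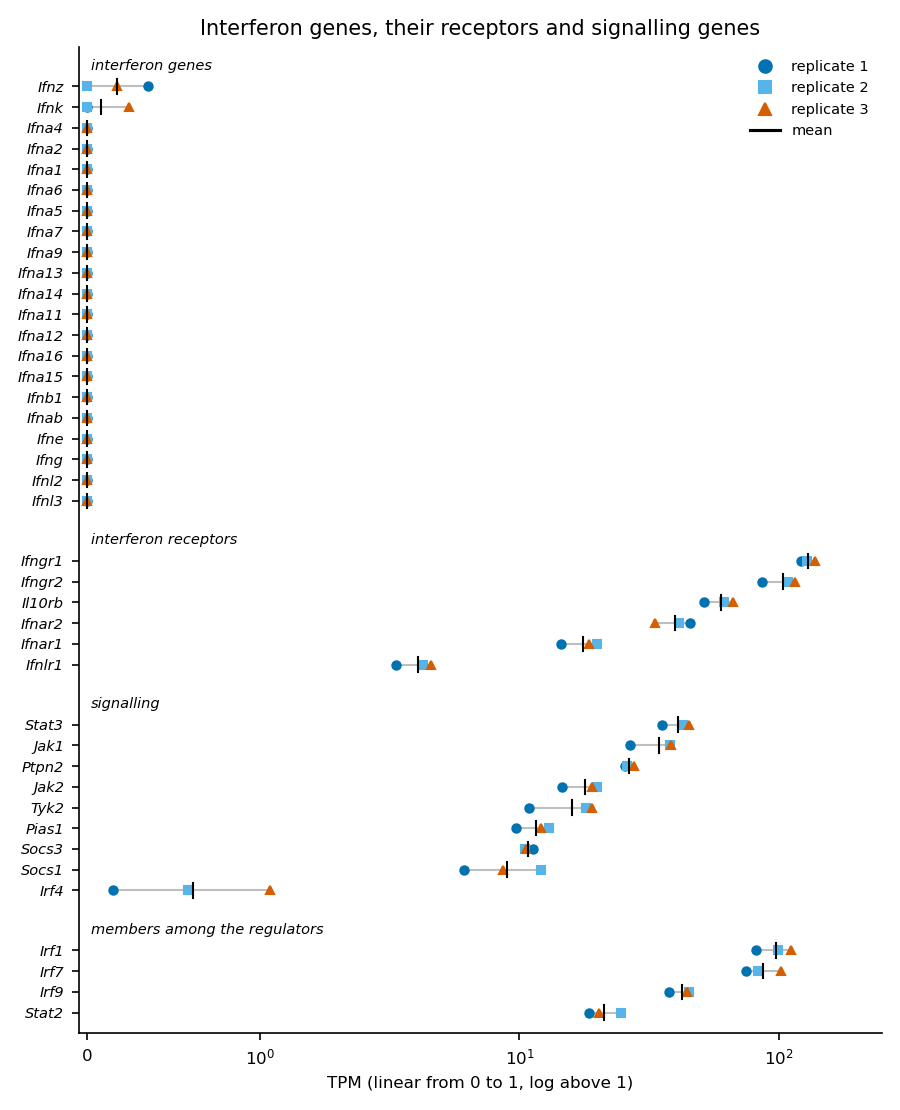
TPM of 21 interferon genes, 6 receptor genes, 9 signalling genes and 4 of the members that regulate the response, in replicates 1 (circles), 2 (squares) and 3 (triangles), with the mean as a black bar; the x axis is linear from 0 to 1 and logarithmic above. The interferon genes sit at or near 0, while all receptor genes lie above 1 TPM, with Ifngr1 highest and Ifnlr1 lowest.

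The OAS family, whose enzymes make the oligoadenylates that activate RNase L, spanned a wide range. Oas1a (chromosome 5, 120896256 to 120907544) had 74.96, 78.6 and 97.6 TPM in replicates 1, 2 and 3, Oas2 had 4.41, 5.43 and 4.91 TPM and Oas3 had 2.92, 4.88 and 5.32 TPM. Oas1a thus stood 25.7, 16.1 and 18.3-fold above Oas3 and 17.00, 14.5 and 19.9-fold above Oas2, genes of the same cluster. All 10 Oas1, Oas2 and Oas3 genes examined lie on chromosome 5 between 120730333 and 120921648. Within the cluster Oas1g (chromosome 5, 120876142 to 120887613) was next at 25.6 ± 3.73 TPM, and, of the other Oas1 genes, Oas1b stood at 6.76 ± 1.13 TPM and Oas1c at 3.39 ± 0.540 TPM. Oas1d, Oas1e, Oas1f and Oas1h all stayed below 1 TPM. Oas1a and Oas1g share sequence: 57.6% of the 50-base words of the longest Oas1a transcript also occur in Oas1g, so reads could be split between them. Their ratio was 3.17, 3.39 and 3.27 in replicates 1, 2 and 3.

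The OAS-like genes lay between these levels. Oasl2 had 21.8, 24.2 and 34.7 TPM in replicates 1, 2 and 3, and Oasl1, which in mice restrains translation of Irf7 mRNA, had 8.47, 11.8 and 15.9 TPM. Of the 5 OAS members 4 were highest in replicate 3 and all 5 were lowest in replicate 1, against 41.3% and 62.6% of all genes of mean TPM 1 or more.

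The IFIT genes, whose products bind foreign RNA ends and RNA-binding partners, form a run on chromosome 19 from 34550550 (Ifit2) to 34650009 (Ifit1). Ifit1 had 13.5, 18.2 and 16.7 TPM in replicates 1, 2 and 3, Ifit3 had 11.2, 16.5 and 11.3 TPM and Ifit2 had 4.40, 5.31 and 4.81 TPM. All 3 were highest in replicate 2, as were 41.7% of all genes of mean TPM 1 or more, and Ifit2 stood clear below the others in every library. The near copy Ifit3b, in which 51.2% of the 50-base words of Ifit3 also occur, had 3.67 ± 0.458 TPM, so the value of Ifit3 is uncertain. Ifit1bl1, a relative with little shared sequence (0.614% of Ifit1 words), was the highest of the family at 35.3 ± 9.04 TPM. The MX genes encode dynamin-like GTPases that trap viral nucleoproteins, and C57BL/6, like most inbred strains, is known to carry a defective Mx1. They were among the lowest members, with Mx1 at 3.18, 7.01 and 4.63 TPM and Mx2 at 2.03, 2.95 and 2.39 TPM, both highest in replicate 2 and lowest in replicate 1. Rsad2, which encodes viperin, a maker of a chain-terminating nucleotide, followed the same pattern at 3.34, 5.999 and 3.60 TPM.

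Isg15, a ubiquitin-like modifier, had 71.97, 67.3 and 64.6 TPM in replicates 1, 2 and 3, a coefficient of variation of 5.46%. Usp18, the protease that removes ISG15 and also damps the type I receptor, had 9.96, 13.2 and 8.84 TPM. Isg15 stood 6.54 ± 1.26-fold above Usp18. The conjugating enzymes of the modifier were present, with the activating enzyme gene Uba7 at 36.8 ± 8.99 TPM and Ube2l6 at 33.9 ± 2.88 TPM.

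Membrane restriction factors held the highest levels of the set. Ifitm3 (chromosome 7, 141009590 to 141010744), which blocks fusion of virus with the endosomal membrane, had 1142, 968 and 679 TPM in replicates 1, 2 and 3. Ifitm2 (chromosome 7, 140954837 to 140959686) had 906, 796 and 697 TPM and Bst2 (chromosome 8, 71534255 to 71537472), or tetherin, which holds budding virus at the cell surface, had 316, 279 and 218 TPM. Each was highest in replicate 1 and lowest in replicate 3, and Ifitm3 lay at percentile 99.3 of all genes on average. Ifitm1 (chromosome 7, 140967429 to 140969827), the gene between Ifitm2 and Ifitm3 on chromosome 7, had only 21.05, 20.02 and 27.2 TPM and was highest in replicate 3. Ifitm3 stood 54.3, 48.3 and 24.96-fold above Ifitm1 in replicates 1, 2 and 3. Transcripts of these genes are short, and 48.5% of Ifitm2 and 10.02% of Ifitm3 words occur in other annotated genes, so the length correction and shared reads could bear on their level. Bst2 is also a marker of plasmacytoid dendritic cells in mice. Of 3 other markers of these cells, Siglech had 0.152, 0.1003 and 0.451 TPM and Cox6a2 0.330, 0.224 and 0.328 TPM, both below 1 in every library, and Pacsin1 had 3.07, 4.49 and 4.45 TPM.

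The guanylate-binding proteins and immunity-related GTPases act on vacuoles that hold microbes and are known chiefly as targets of interferon-gamma. Gbp2 (chromosome 3, 142620663 to 142638008) had 34.8, 29.1 and 42.8 TPM in replicates 1, 2 and 3 and stood apart from its relatives in each of them. Gbp3 had 14.9, 15.9 and 14.2 TPM, Gbp6 had 14.6, 14.1 and 14.1 TPM and Gbp7 had 6.85, 8.14 and 8.26 TPM. Gbp6 was nearly constant (coefficient of variation 1.88%), but 59.7% of its words occur in other genes, Gbp10 among them, so its value is uncertain. Among the immunity-related GTPases, Irgm1, a regulator of the family, had 36.8, 39.5 and 50.3 TPM, and Igtp, another regulator, had 26.9, 25.3 and 28.2 TPM. The effector gene Iigp1 had 22.9, 21.1 and 18.9 TPM and was the only one of the 3 highest in replicate 1. All 3 exceeded a TPM of 10 in every library, and Irgm1 was the highest of them in every library.

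The remaining effectors ranged from Ifi27, a gene for a small hydrophobic protein, down to Rsad2. Ifi27 (chromosome 12, 103434189 to 103440245) had 186, 162 and 147 TPM in replicates 1, 2 and 3. Ifi35, whose product pairs with NMI, had 57.1, 53.6 and 55.6 TPM, and the exonuclease gene Isg20 had 38.9, 38.7 and 41.99 TPM. Ifi27 was highest in replicate 1 and lowest in replicate 3, whereas Ifi35 and Isg20 varied by under 5% (coefficients of variation 3.14% and 4.65%). Xaf1, a partner of the apoptosis inhibitor XIAP, had 30.7, 35.9 and 37.3 TPM, and Rtp4, a receptor chaperone gene, had 25.2, 25.02 and 24.1 TPM. Parp14, an ADP-ribosyltransferase gene, had 10.6, 16.5 and 16.8 TPM, with replicate 1 the lowest. Ifi44 had 12.2, 11.7 and 9.37 TPM and Trim30a, which limits Toll-like receptor signalling, had 8.70, 9.17 and 10.9 TPM.

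Further genes of the response were read from a list of 58 other interferon-stimulated genes. Of these, 43 had at least 1 TPM in each library and 11 had less than 1 in all. Ly6e (383 ± 46.1 TPM), Ifi27l2b (231 ± 22.5 TPM), Ifi30 (208 ± 11.1 TPM), Ifi27l2a (203 ± 45.8 TPM) and Lgals3bp (149 ± 21.1 TPM) led the list, and Ifi44l was listed at 0. Its median was 8.70 ± 0.814 TPM, against 24.1 ± 1.66 TPM for the members. The chemokine genes that interferon-gamma induces were low, with Cxcl10 at 4.22, 3.27 and 2.57 TPM, Cxcl9 at 0.357, 0.706 and 1.34 TPM and Cxcl11 at 0.505, 0.782 and 0.555 TPM in replicates 1, 2 and 3. Cxcl9 and Cxcl11 lay below every member in every library. Antigen presentation genes that respond to interferon-gamma were higher, and 11 of 12 passed a TPM of 1 in every library. They were led by B2m (1652 ± 80.4 TPM), the proteasome activator genes Psme2 (332 ± 19.4 TPM) and Psme1 (298 ± 32.8 TPM), and the immunoproteasome genes Psmb10 (196 ± 21.4 TPM) and Psmb9 (118 ± 14.8 TPM). Their class I activator gene Nlrc5 had 2.44 ± 0.451 TPM, and Ciita, the class II activator gene, had 0.975, 0.834 and 3.50 TPM in replicates 1, 2 and 3.

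How the members varied between libraries was compared with all genes of a mean TPM of 1 or more, a filter that all 42 members passed. The median SD of log2(TPM + 1) was 0.21 over the members and 0.19 over the 13606 genes. The coefficient of variation had a median of 15.2% over the members, close to the 14.6% over the 13606 genes. It was under 10% for 11 members and above 30% for 4 (Irf5, Mx1, Rsad2 and Oasl1). How many of the 13606 genes pass these limits was not counted, so the counts do not set the members apart. An SD above percentile 95 of genes of like expression was found for 1 member, Ifitm3 (2.38% of the set), against 5% of all such genes. Without replicate 1 it was found for 6 members, Ifitm3 among them, against 5.10% of all such genes. Without replicate 3 it was found for Mx1 in place of Ifitm3, against 5.07%.

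By library, 10 members were highest in replicate 1, 12 in replicate 2 and 20 in replicate 3, which is 23.8%, 28.6% and 47.6% of the set. Over all genes of mean TPM 1 or more these shares were 17%, 41.7% and 41.3%. The lowest value fell in replicate 1 for 23 members (54.8%), in replicate 2 for 7 (16.7%) and in replicate 3 for 12 (28.6%), against 62.6%, 14.9% and 22.4% of all such genes. Much of the low standing of replicate 1 is shared with other genes. Median-of-ratios scaling, which aligns the libraries on their typical gene, raised the log2 values of replicate 1 by 0.15 and lowered those of replicates 2 and 3 by 0.08 and 0.09. After it, 10 members were lowest in replicate 1, 13 in replicate 2 and 19 in replicate 3, against 37.6%, 25.7% and 36.7% of all such genes. The highest value then fell in replicates 1, 2 and 3 for 14, 10 and 18 members, against 41.1%, 27.7% and 31.2% of all such genes.

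The 4 most abundant members ranked the libraries alike. Ifitm3, Ifitm2, Bst2 and Ifi27 were each highest in replicate 1 and lowest in replicate 3, and their sum was 2549.6, 2205 and 1742 TPM in replicates 1, 2 and 3. Isg15, Rtp4, Iigp1, Gbp6 and Ifi44 were also highest in replicate 1 and lowest in replicate 3, so this order was not particular to the 4. The share of all genes with this order was not counted. The other 38 members summed to 1004, 1094 and 1201 TPM, highest in replicate 3. After median-of-ratios scaling the sum of the 4 was 2829.6, 2085 and 1639.6, and that of the other 38 was 1114, 1034.5 and 1130.5, lowest in replicate 2. On the log2(TPM + 1) scale, replicate 3 minus the mean of replicates 1 and 2 was -0.63 for Ifitm3, -0.45 for Bst2, -0.28 for Ifitm2 and -0.23 for Ifi27. These differences were -0.75, -0.57, -0.41 and -0.36 after median-of-ratios scaling, so the direction was the same under both. The median over all genes of mean TPM 1 or more was 0.10 as deposited and -0.01 after scaling. This grouping of 4 was made after the values were seen.

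Cell type markers differed between the same libraries. By their medians on that scale, replicate 3 differed by -0.75 for the 7 lymphatic markers, all of which were lowest in replicate 3, and by 0.21 for the 10 epithelial markers. The medians were 1.32 for the 8 macrophage markers, 1.45 for the 7 fibroblast markers and 1.12 for the 6 smooth muscle and pericyte markers, and all of these were highest in replicate 3. The 8 blood endothelial markers were mixed, with 3 lowest and 5 highest in replicate 3. For the role groups the medians were 0.42 for the 2 sensors, 0.40 for the OAS family and 0.29 for the transcription regulators. They were 0.11 for the immunity-related GTPases, 0.05 for the guanylate-binding proteins, 0.01 for the other effectors, -0.01 for the IFIT family and -0.03 for the MX genes. The lowest were -0.22 for Isg15 and Usp18 and -0.36 for the membrane restriction factors, against a median of 0.10 over all genes of mean TPM 1 or more. The part of other cells in the members' values was not tested.

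**Figure D4:**
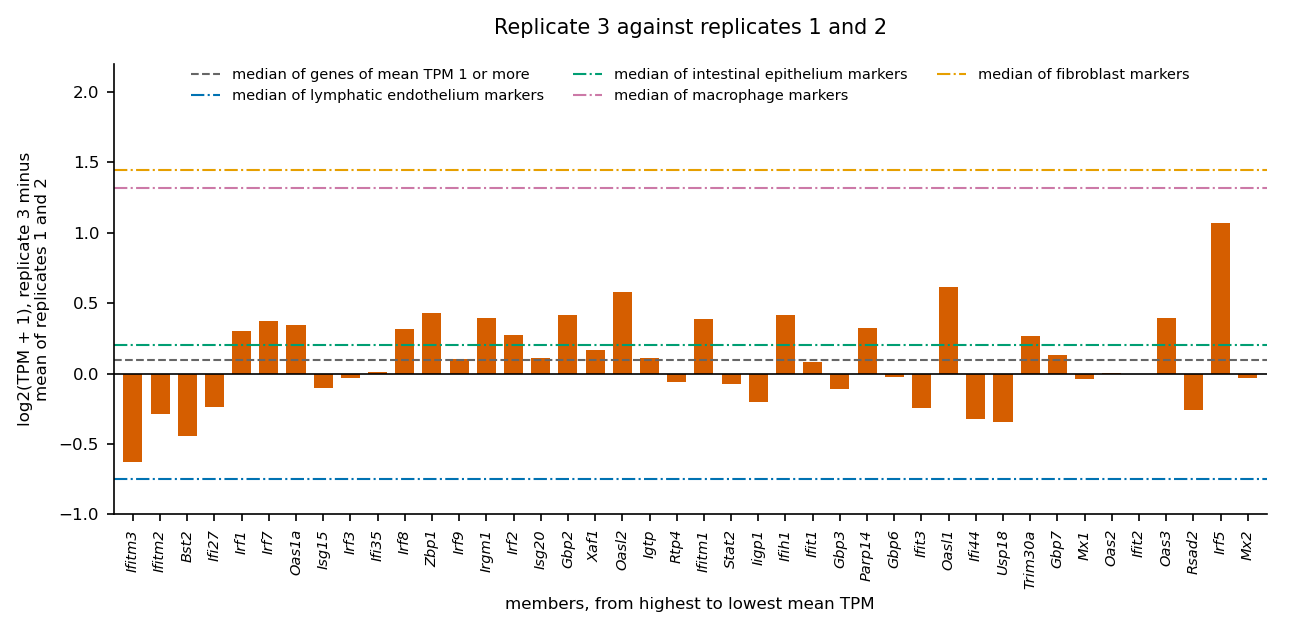
Difference in log2(TPM + 1) between replicate 3 and the mean of replicates 1 and 2 for each of the 42 members (bars), ordered from the highest mean TPM (left) to the lowest. Lines give the median over genes of mean TPM 1 or more and over 4 lists of cell type markers. The 4 most abundant members lie below 0, as do others such as Isg15, Usp18 and Ifi44. Of the 42, 24 lie above 0, and Irf5 has the largest positive bar.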

How the data were processed

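RNA of sorted lymphatic endothelial cells was sequenced as 3 libraries of 1 group, and the authors deposited 1 table per library with a TPM value for each of 24091 genes, per the file headers. The submitters' processing notes name mm10, Cell Ranger 6.0.1 and HTSeq. How TPM was computed, the annotation and the use of strand are not given in the sources used here. The columns sum to 999939, 999907 and 999896.

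All 42 members are named, as are the 5 genes of highest mean TPM in each of 6 further pathway lists, with 11 lists of cell type markers. Chemokine, receptor, OAS cluster and other single genes named beyond this rule were chosen after their values were seen. Of the signalling genes, 9 are reported here. The members and lists were chosen with earlier results of these data known. Names and coordinates came from RefSeq (GRCm38.p6), which matched all 42 members, and transcripts from GENCODE M21. Spread is the SD of log2(TPM + 1). Variable genes exceed percentile 95 of 20 bins of mean expression, a step tried on simulated data. How often differences of the size seen in the members were called in that trial is not reported here.

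TPM keeps no depth, but for genes with 1 RefSeq transcript, TPM multiplied by length less 180 to 200 bases fell on regular steps. From these, a TPM of 1 on 1000 bases was estimated at 32.5, 28.3 and 26.1 fragments. Sequence shared between genes was counted as 50-base words. Alternatives were other TPM thresholds, pseudocounts, filters and scalings, and leaving out each replicate. Python 3.11.15, numpy 2.4.6, pandas 2.3.3 and matplotlib 3.10.9 were used.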

Additional observations from a re-analysis of the deposited data

How the results depend on the processing

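With 1 group, no result rests on a test, and TPM gives no counting error. No paired analysis was possible because the libraries form 1 group. The count of members at a TPM of 1 in all libraries, 42, remained 42 at a threshold of 0.5, for the mean, and without each replicate. The shares of all genes were then 57.2%, 56.5% and 53.8% to 54.7%. The count was 35 at a threshold of 5 and 30 at 10, against 40.7% and 31.7% of all genes. Removing 90 ribosomal protein genes rescaled all levels. The median member then stood at 30.5 TPM, and role group medians at 58.3 (transcription regulators), 38.6 (sensors), 16.4 (IFIT), 49.7 (ISG15 and its protease), 674 (membrane factors), 18.5 (guanylate-binding proteins), 33.8 (immunity-related GTPases) and 31.3 TPM (other effectors). The OAS and MX medians moved by less than their SD. The geometric mean with a pseudocount of 1 was 26.3 TPM, and leaving out each replicate gave medians of 23.4 to 25.0 TPM. The members' median SD of log2(TPM + 1) was 0.21, against 0.19 over all genes of mean TPM 1 or more. It was 0.13 against 0.09 without replicate 1, 0.21 against 0.20 without replicate 2 and 0.15 against 0.17 without replicate 3. Both were 0.17 after median-of-ratios scaling, so which was larger depended on the setting. The count of variable members, 1 against 5% of all such genes, was 2 against 9.996% at percentile 90 (Ifitm3 and Bst2). The larger count at percentile 90 thus came with a larger share of all such genes. After median-of-ratios scaling it was 2 against 5.003%, the same 2 members. With a replicate left out it was 1 to 6, against 4.99% to 5.10%. Members highest in replicate 3, 20 against 41.3% of all genes of mean TPM 1 or more, numbered 18 against 31.2% after median-of-ratios scaling, 19 against 37.3% without ribosomal protein genes and 20 against 42.6% with all genes above 0. They numbered 21 against 46.7% without replicate 1 and 29 against 71.9% without replicate 2. Leaving out a replicate was added for these last counts after the data were seen.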
